A study of Arabidopsis thaliana with 18 samples.

Results

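Tonoplast intrinsic proteins (TIPs) are the aquaporins of the vacuole membrane. The data were the Arabidopsis thaliana TIP genes TIP2;3, TIP2;2, TIP1;3, TIP4;1, TIP5;1, TIP2, GAMMA-TIP and DELTA-TIP, taken as the rows of the expression table that carry these symbols. Of the 8 genes, 7 of the 25177 rows matched and TIP5;1 was not analysed here. After removal of genes with low counts 6 of the 7 stayed among 21004 tested genes, all but TIP1;3. The genes were chosen from expression values of these same libraries, and the contrast used for that choice is not given in the sources used here. Their levels and fold changes are therefore given as a description, without p-values, and the number called in each contrast supports nothing by itself.

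Polyadenylated RNA was sequenced from root tips of seedlings of 6 genotypes, with 3 libraries labelled as biological replicates for each. The genotypes were wild type (WT, the Col-0 accession), the single mutants gun1-101, nac103-11 and rab8d-2, and 2 double mutants that joined rab8d-2 with one of the other alleles, gun1-101 rab8d-2 or nac103-11 rab8d-2. The rab8d-2 allele impairs the plastid translation elongation factor EF-Tu. GUN1 acts in plastids in retrograde signalling to the nucleus, and NAC103 belongs to the NAC transcription factors. Seedlings grew on 1/2 MS medium with sucrose under 16-h days, and the labels give 4 days of age while the series design gives 3 days. Each mutation is represented by 1 allele, and whether a replicate was a separate culture is not stated, so the p-values below measure the spread between these libraries.

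In plant cells most of the water is held in the vacuole, and TIPs let water and small neutral solutes cross its membrane. A root cell elongates largely by filling its vacuole, so TIP transcripts are known as abundant in expanding root cells. The TIP1 subgroup holds GAMMA-TIP (systematic name TIP1;1), TIP2 (TIP1;2) and TIP1;3. The TIP2 subgroup holds DELTA-TIP (TIP2;1), TIP2;2 and TIP2;3, of which DELTA-TIP and TIP2;3 also pass ammonia. TIP4;1 forms a subgroup of its own and passes urea in yeast, TIP1;3 and TIP5;1 are known from pollen, and BETA-TIP and TIP3;1 from seeds.

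The promoters of TIP2;3 and TIP2;2, the genes with the largest fold changes below, and of TIP4;1, the only one of the 6 whose levels overlapped between rab8d-2 carriers and other genotypes, are shown, 250 bases up to the annotated gene start, from RefSeq assembly TAIR10.1, 5′ to 3′ on the strand of the gene. Capitals mark matches to the 4 motifs searched on both strands, the G-box CACGTG, the W-box core TTGAC, the TATA motif TATAAA and the gapped motif bound by the transcription factor SOG1. The TIP2;3 window is chr5:19249623-19249872 (minus strand), that of TIP2;2 is chr4:9698690-9698939 (plus strand), and that of TIP4;1 is chr2:11012249-11012498 (plus strand).
TIP2;3: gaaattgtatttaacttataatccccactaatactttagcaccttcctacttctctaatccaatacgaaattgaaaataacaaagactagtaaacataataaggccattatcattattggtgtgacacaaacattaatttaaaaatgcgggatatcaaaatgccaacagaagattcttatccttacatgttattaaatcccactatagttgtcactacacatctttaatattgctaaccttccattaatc
TIP2;2: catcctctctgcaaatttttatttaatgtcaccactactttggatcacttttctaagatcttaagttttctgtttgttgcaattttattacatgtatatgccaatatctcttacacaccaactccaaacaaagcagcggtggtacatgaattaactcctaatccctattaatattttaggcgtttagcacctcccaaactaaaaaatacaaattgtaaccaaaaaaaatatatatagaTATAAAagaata
TIP4;1: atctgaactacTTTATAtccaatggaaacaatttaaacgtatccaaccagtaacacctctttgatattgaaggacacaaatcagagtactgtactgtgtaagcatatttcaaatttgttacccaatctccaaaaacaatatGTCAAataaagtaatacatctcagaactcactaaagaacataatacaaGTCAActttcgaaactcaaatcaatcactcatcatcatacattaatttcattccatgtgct
The window of AT5G47450 (TIP2;3) held none of the 4 motifs. AT4G17340 (TIP2;2) had TATAAA beginning 12 bases before the gene start. AT2G25810 (TIP4;1) had TTGAC on the minus strand at 109 and at 61 bases before the start, and TATAAA on the minus strand at 239 bases. Across 27437 promoters of the same length, 44.9% held TTGAC, 47.4% TATAAA, 6.49% CACGTG and 9.71% the SOG1 motif, and of the 8 genes 3, 4, 0 and 0 held them. These motifs are common enough that a match describes the letters only.

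Total expected counts per library were 22625981 to 23090995. RABE1b (AT4G20360), the rab8d-2 target, encodes plastid EF-Tu and had 137 ± 34.8 scaled counts per 1000000 counts (CPM, SD, n = 3) in WT and 13.7 ± 4.53 in rab8d-2, a fall that was called (adjusted p = 6.57e-05). GUN1 had 147 ± 16.7 in WT and 79.6 ± 11.7 in gun1-101, lower but not called (adjusted p = 0.171). NAC103 had 1.07 ± 0.797 CPM in WT, 0.136 ± 0.0507 in nac103-11, 19.6 ± 9.29 in rab8d-2 and 6.24 ± 2.66 in nac103-11 rab8d-2, and was called neither in nac103-11 against WT (adjusted p = 0.565) nor in nac103-11 rab8d-2 against rab8d-2 (adjusted p = 0.061). RNA from each locus was thus still counted in its mutant, and for NAC103 the double mutant lay above WT. Replicate 3 of WT and that of nac103-11 rab8d-2 were unlike the libraries beside them, with chi-square values per gene of 141 to 173 where the other pairs gave 2.11 to 93.1. The lowest of these, 2.11, was between gun1-101 rab8d-2 replicates 1 and 2, which exceeded counting noise and were kept as separate libraries.

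TIP2;3 (AT5G47450, chr5:19248249-19249622, minus strand, 2 coding exons) had the widest range among genotypes. Levels that are compared between genes are in TPM, the transcript share scaled to 1000000, which divides by transcript length. The gene was at 323, 383 and 600.5 TPM in the WT libraries, at 503, 502 and 537 TPM in gun1-101, and at 402, 249 and 495 TPM in nac103-11. In rab8d-2 it was at 38.8, 30.9 and 141 TPM. The double mutants had 10.3, 12.2 and 6.23 TPM (gun1-101 rab8d-2) and 14.9, 10.1 and 17.5 TPM (nac103-11 rab8d-2). All 9 libraries carrying rab8d-2 lay below all 9 others, and rab8d-2 replicate 3 was the highest of the carriers. The edgeR log2 fold change was -2.87 ± 0.53 (SE) in rab8d-2 against WT, a level 7.33-fold lower. Against their own single mutants the values were -5.94 ± 0.62 in gun1-101 rab8d-2, 61.5-fold lower, and -4.65 ± 0.58 in nac103-11 rab8d-2, 25.1-fold lower. Without rab8d-2 replicate 3 the value against WT was -3.88. In bulk root tips such a difference can come with fewer cells of a type or with less RNA per cell, which cannot be told apart here.

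TIP2;2 (AT4G17340, chr4:9698940-9700472, plus strand, 2 coding exons) is the closest relative of TIP2;3, with 81.7% identical coding bases and a longest shared run of 26 bases. WT libraries had 867, 1385 and 863 TPM, those of gun1-101 had 893, 818 and 874 TPM, and those of nac103-11 had 1012, 948 and 1241 TPM. The rab8d-2 libraries had 209, 108 and 361 TPM. Levels were 57.8, 58.3 and 34.7 TPM in gun1-101 rab8d-2 and 65.4, 36.4 and 128 TPM in nac103-11 rab8d-2. No carrier library reached a library without rab8d-2. The log2 fold change was -2.49 ± 0.55 in rab8d-2 against WT (5.62-fold lower), -4.30 ± 0.60 in gun1-101 rab8d-2 against gun1-101 (19.7-fold lower) and -3.60 ± 0.58 in nac103-11 rab8d-2 against nac103-11 (12.1-fold lower). The expected counts of both genes were whole numbers in all 18 libraries, at a tolerance of 1e-06, so the counts hold no fraction of a read shared between them.

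The balance within this pair also differed between libraries. The TIP2;3 share of the summed TPM of the pair was 30 ± 9.94% (SD, n = 3) in WT, 37.3 ± 1.15% in gun1-101 and 25.9 ± 4.45% in nac103-11. It was 22 ± 6.2% in rab8d-2, 15.9 ± 1.24% in gun1-101 rab8d-2 and 17.4 ± 4.94% in nac103-11 rab8d-2. WT libraries spanned 21.7 to 41% and the carriers 12 to 28.1%, so these ranges overlapped. The gun1-101 libraries, at 36 to 38%, did not overlap those of gun1-101 rab8d-2, at 15.1 to 17.3%. Those of nac103-11, at 20.8 to 28.5%, overlapped nac103-11 rab8d-2, at 12 to 21.7%. The highest WT share was in replicate 3, the library that stood apart.

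GAMMA-TIP (AT2G36830, chr2:15445294-15446621, plus strand, 2 coding exons) had the highest mean TPM of the family in WT. It was at 2413, 2684 and 2643 TPM in WT, at 2704, 2487 and 2698 TPM in gun1-101, and at 2165, 1860.1 and 2524 TPM in nac103-11. The rab8d-2 libraries had 984, 532 and 1483 TPM. In gun1-101 rab8d-2 the levels were 321, 319 and 275 TPM, and in nac103-11 rab8d-2 484, 313 and 604 TPM. The spread was small in the genotypes without rab8d-2 and wide in rab8d-2 itself, whose mean was 999 ± 476 TPM (SD, n = 3) against 2580 ± 146 TPM in WT. Log2 fold changes were -1.63 ± 0.38 (3.1-fold lower) in rab8d-2 against WT, -3.31 ± 0.40 (9.91-fold lower) in gun1-101 rab8d-2 against gun1-101 and -2.10 ± 0.38 (4.29-fold lower) in nac103-11 rab8d-2 against nac103-11.

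TIP2 (AT3G26520, chr3:9722443-9723904, minus strand, 2 coding exons) shares 81.5% of coding bases with GAMMA-TIP. Its WT libraries had 2333, 2832 and 1706 TPM, its gun1-101 libraries 1787, 1827 and 1706 TPM, and its nac103-11 libraries 2000.3, 1768 and 2590.1 TPM. With rab8d-2 alone it was at 1009, 390.1 and 876 TPM. The double mutants had 302, 297 and 231 TPM (gun1-101 rab8d-2) and 429.8, 201 and 598 TPM (nac103-11 rab8d-2). As for GAMMA-TIP, carriers and other genotypes did not overlap. The log2 fold changes were -1.88 ± 0.47 (3.68-fold lower), -2.88 ± 0.49 (7.37-fold lower) and -2.22 ± 0.48 (4.64-fold lower) in the same 3 comparisons. Expected counts of this pair were not whole in 16 of 18 libraries, and the source of the fractions was not tested. Their longest identical coding run was 29 bases. With both counted as 1 gene the direction was the same in all 3 comparisons.

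DELTA-TIP (AT3G16240, chr3:5505360-5507050, plus strand, 3 coding exons) lay at a lower level than the TIP1 pair. WT libraries had 382, 653 and 360.3 TPM, gun1-101 libraries 451, 509.8 and 432 TPM, and nac103-11 libraries 418, 373 and 459 TPM. The levels were 167, 84.4 and 223 TPM in rab8d-2, 141, 145 and 65.3 TPM in gun1-101 rab8d-2, and 120, 60.2 and 240.5 TPM in nac103-11 rab8d-2. The carriers again lay below every other library, but the 3 carrier genotypes overlapped each other. Log2 fold changes were -1.85 ± 0.56 (3.6-fold lower) in rab8d-2 against WT, -2.18 ± 0.56 (4.54-fold lower) in gun1-101 rab8d-2 and -1.36 ± 0.55 (2.57-fold lower) in nac103-11 rab8d-2, each against its single mutant. The last was not called, and was -2.42 without nac103-11 rab8d-2 replicate 3.

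TIP4;1 (AT2G25810, chr2:11012499-11014171, plus strand, 3 coding exons) had the lowest mean TPM of the 6 in WT. It was at 71.3, 178 and 88.6 TPM in WT, at 76.8, 77.8 and 64.1 TPM in gun1-101, and at 143, 142 and 134 TPM in nac103-11. The rab8d-2 libraries had 78.7, 26.2 and 79.8 TPM. Levels were 33.9, 32.3 and 14.1 TPM in gun1-101 rab8d-2 and 52.4, 26.4 and 95.6 TPM in nac103-11 rab8d-2. For this gene alone of the 6 the carriers, at 14.1 to 159 CPM, overlapped the other genotypes, at 75 to 258 CPM. The log2 fold changes were -1.17 ± 0.58 (2.25-fold lower, not called), -1.64 ± 0.58 (3.12-fold lower) and -1.07 ± 0.58 (2.1-fold lower, not called) in the same 3 comparisons, in the same order. The first was -0.54 without WT replicate 2. The last was -0.66 without nac103-11 rab8d-2 replicate 2 and -2.04 without replicate 3.

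**Figure D1:**
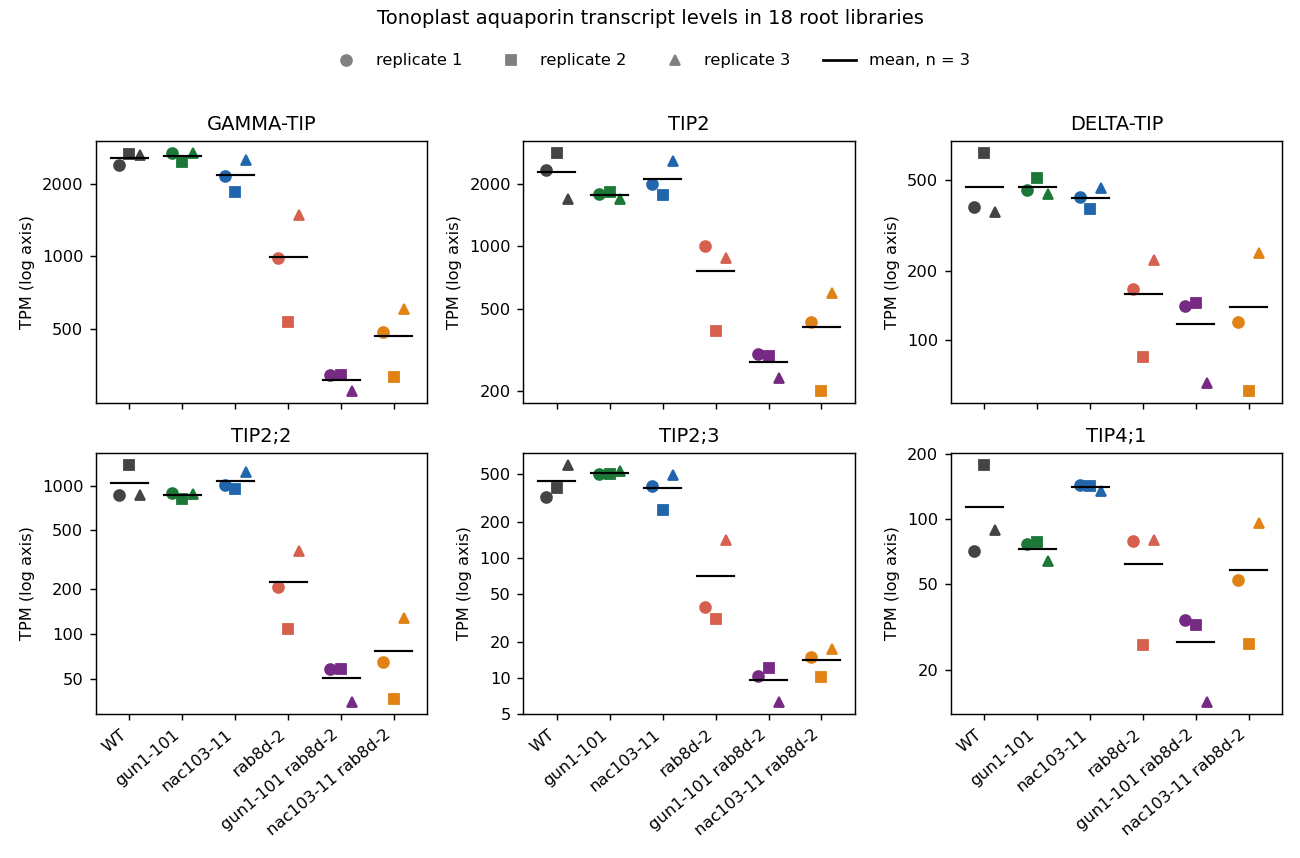
TPM (log axis) of the 6 tested TIP genes in each of the 18 libraries by genotype, with genotype means (n = 3) as lines. The carriers of rab8d-2 lie below the other genotypes for every gene except TIP4;1, and TIP2;3 spans the widest range, from 6.23 to 600.5 TPM.

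TIP1;3 (AT4G01470, chr4:624786-625885, minus strand, 1 coding exon) was near the floor, with 0 to 5 counts per library and 0 to 0.2 TPM, and no difference was detectable at this depth. The seed genes of the family, which were not among those chosen, were low and uneven. TIP3;1 (AT1G73190) was at 8.21, 18 and 1.79 TPM in WT and at 17.9, 2.37 and 0.49 TPM in rab8d-2. BETA-TIP (AT1G17810) was at 27.3 TPM in rab8d-2 replicate 1 and at 5.01 TPM or less in the other 17 libraries. The summed TPM of the seed storage markers was 120 in that replicate and 119 in WT replicate 2, against 0.05 or less in 2 libraries of nac103-11 rab8d-2, so BETA-TIP and the storage markers were highest in the same library. With gun1-101 as the background, rab8d-2 came with a fall in TIP3;1 (log2 fold change -4.65 ± 1.64, adjusted p = 0.0454).

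In CPM, gun1-101 rab8d-2 had the lowest genotype mean for all 6 genes. TIP2;3 had means of 603 in gun1-101, 558 in WT, 459 in nac103-11, 76.2 in rab8d-2, 18.3 in nac103-11 rab8d-2 and 9.79 in gun1-101 rab8d-2. Between neighbours in that order, libraries did not overlap from nac103-11 to rab8d-2 and from rab8d-2 to nac103-11 rab8d-2, and overlapped at the other steps. TIP4;1 gave another order, with means of 169 in nac103-11, 152 in WT, 85.9 in gun1-101, 80.6 in nac103-11 rab8d-2, 67.5 in rab8d-2 and 27.5 in gun1-101 rab8d-2. Within rab8d-2, replicate 2 was the lowest library for all 6 genes, and within nac103-11 rab8d-2 replicate 3 was the highest for all 6.

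A gene was called where edgeR's quasi-likelihood test, fitted on all 21004 genes, gave an adjusted p below 0.05. In rab8d-2 against WT, 5 of 6 TIP genes were called lower, where 7.5% of all tested genes were called lower and 4.8% higher. In CPM all 6 were lower in every rab8d-2 library than in every WT library, as 15.1% of all genes were, whereas in TPM the TIP4;1 libraries overlapped. In gun1-101 rab8d-2 against gun1-101, 6 of 6 were called lower against 15.7% of all genes lower and 12.7% higher. There too the CPM of all 6 did not overlap, as for 31% of genes. In nac103-11 rab8d-2 against nac103-11, 4 of 6 were called lower against 14.3% lower and 14.7% higher over all genes, and all 6 had CPM that did not overlap, as had 20.4% of genes. Median log2 fold changes of the 6 were -1.86, -3.1 and -2.16 in these contrasts, beside 0.01, 0.05 and 0.09 over all genes. On the TPM scale the all-gene medians were 0.22, 0.2 and 0.02. Since the genes were chosen from these libraries, nothing is read from these counts.

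The count of 5 in rab8d-2 against WT fell when either of 2 libraries was left out. It was 1 without WT replicate 2, and 1 without rab8d-2 replicate 2, with TIP2;3 called in both. The number called over all genes moved too, from 2585 to between 447 and 4703 with 1 library left out. DELTA-TIP was called there in 10 of 26 alternative analyses, and TIP4;1 in gun1-101 rab8d-2 against gun1-101 in 11 of 26. With nac103-11 rab8d-2 replicate 3 and WT replicate 3 left out, 6 of 6 genes were called lower in all 3 contrasts. All-gene calls also depended on the setting. They numbered 2585, 5946 and 6086 as reported, and up to 7974, 10974 and 8694 under the alternatives run, so nothing is read from the 6 of 6.

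**Figure D2:**
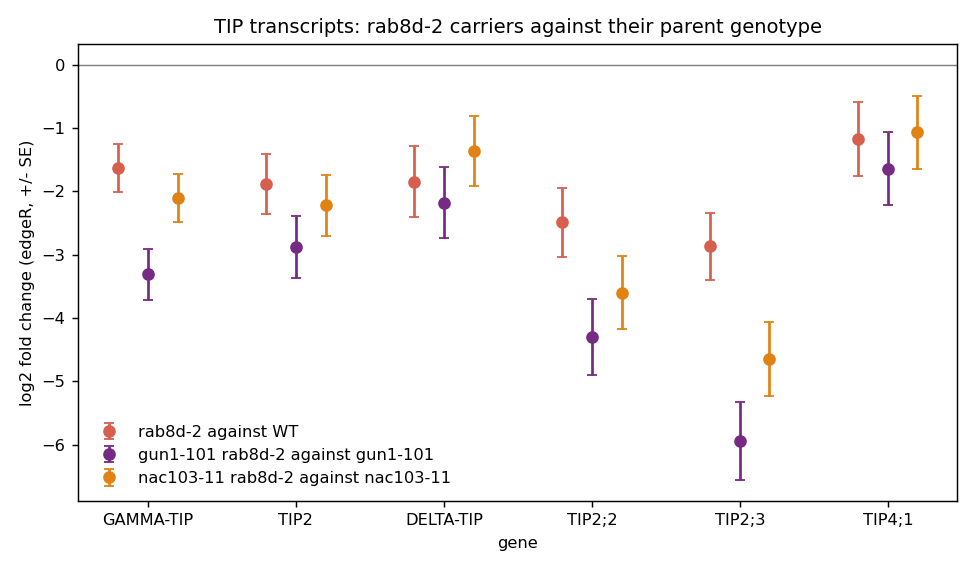
Log2 fold changes (points) with standard errors (bars) of the 6 tested TIP genes for rab8d-2 against WT, gun1-101 rab8d-2 against gun1-101 and nac103-11 rab8d-2 against nac103-11. All 18 values are below 0, from -1.07 for TIP4;1 to -5.94 for TIP2;3.

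The gun1-101 and nac103-11 mutations without rab8d-2 came with small differences. In gun1-101 against WT none of the 6 TIP genes was called by edgeR, with 0 at an unadjusted p below 0.05 and 0 by DESeq2 and limma. Over all genes edgeR called 0.019% in either direction, 1489 of 21004 had an unadjusted p below 0.05, and the alternatives run called 0 to 3946. Log2 fold changes ranged from -0.82 ± 0.57 for TIP4;1 to 0.11 ± 0.49 for TIP2;3. In CPM the TIP4;1 libraries of gun1-101, the highest at 93.1, lay just below those of WT, the lowest at 94.2, as 7% of all genes were lower with no overlap, and in TPM they overlapped. In nac103-11 against WT again 0 of 6 were called by edgeR, 0 at an unadjusted p below 0.05 and 0 by DESeq2 and limma. Log2 fold changes ranged from -0.36 to 0.16. Over all genes edgeR called 0.00952%, 1363 of 21004 had an unadjusted p below 0.05, and the alternatives run called 0 to 1219. Both contrasts use the same WT libraries.

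The double mutants were also set against rab8d-2, whose libraries serve in both of these contrasts and in that with WT. In gun1-101 rab8d-2, GAMMA-TIP was 3.5-fold lower (log2 fold change -1.81 ± 0.38), TIP2;2 4.78-fold lower (-2.26 ± 0.55) and TIP2;3 7.78-fold lower (-2.96 ± 0.54). These 3 of 6 were called lower, beside 1.68% of all genes. Of TIP2, DELTA-TIP and TIP4;1, with values of -1.55 ± 0.46, -0.52 ± 0.54 and -1.29 ± 0.58, none was called. Lower libraries with no overlap were seen for 16.3% of all genes, and for GAMMA-TIP, TIP2, TIP2;2 and TIP2;3. The count of called genes was 1 without rab8d-2 replicate 3 and 1 without any one of the gun1-101 rab8d-2 libraries, and TIP2;3 was called in each of these. Its log2 fold change was -1.96 without rab8d-2 replicate 3. All-gene calls in this contrast, 878 as reported, were 209 to 1791 with 1 library left out.

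In nac103-11 rab8d-2 against rab8d-2, TIP2;3 was 4.17-fold lower (-2.06 ± 0.52), with libraries that did not overlap, as for 8.37% of all genes. It was the only 1 of 6 called lower, beside 1.26% of all genes, and was called in 6 of 27 alternative analyses. Without rab8d-2 replicate 3 its value was -1.06. All-gene calls in this contrast, 534 as reported, were 2 to 2096 over the alternatives run. DELTA-TIP (0.18) and TIP4;1 (0.25) were near 0. They were -0.28 and -0.1 on log2(TPM + 1), -0.13 and -0.12 without rab8d-2 replicate 2, and -0.85 and -0.68 without nac103-11 rab8d-2 replicate 3.

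The interaction terms ask whether rab8d-2 had a different effect with and without the other mutation. For gun1-101 the terms were -3.07 ± 0.72 for TIP2;3, -1.81 ± 0.74 for TIP2;2, -1.68 ± 0.52 for GAMMA-TIP, -1 ± 0.64 for TIP2, -0.47 ± 0.81 for TIP4;1 and -0.33 ± 0.76 for DELTA-TIP. None of 6 was called by edgeR, where 0.195% of all genes were, while 3 had an unadjusted p below 0.05 and DESeq2 and limma called 1 each. Over all genes 2108 of 21004 had an unadjusted edgeR p below 0.05, and the alternatives run called 11 to 748. For nac103-11 the terms ranged from -1.78 ± 0.71 for TIP2;3 to 0.49 ± 0.76 for DELTA-TIP. Of the 6, 0 were called by edgeR, 1 had an unadjusted p below 0.05 and 0 were called by DESeq2 and limma. Over all genes edgeR called 0.00952%, 3340 of 21004 had an unadjusted p below 0.05, and the alternatives run called 2 to 548. The TIP2;3 term was -0.78 without rab8d-2 replicate 3, and the DELTA-TIP term was -0.6 without nac103-11 rab8d-2 replicate 3. A larger difference with gun1-101 or nac103-11 present was thus not called in this design.

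Summed over the family, TIP transcripts were at 6920 ± 1040 TPM in WT, 6310 ± 95 in gun1-101 and 6310 ± 1060 in nac103-11 (SD, n = 3). The sums were 2270 ± 1010 in rab8d-2, 785 ± 137 in gun1-101 rab8d-2 and 1170 ± 517 in nac103-11 rab8d-2. As a share of all TPM they went from 0.954% in WT to 0.324% in rab8d-2, 0.114% in gun1-101 rab8d-2 and 0.152% in nac103-11 rab8d-2. GAMMA-TIP and TIP2 together made up 70.6% of the TIP sum in WT and 77.8%, 74.7% and 76.4% in the carriers. The TIP2;2 share was 14.8% in WT, 9.66% in rab8d-2, 6.32% in gun1-101 rab8d-2 and 6.28% in nac103-11 rab8d-2. The TIP2;3 share was 6.46% in WT and 2.88%, 1.2% and 1.29% in the carriers in that order. DELTA-TIP held a larger share in the double mutants, 14.5% and 11.3%, than in WT (6.59%) or rab8d-2 (6.99%). The TIP4;1 share was 1.58% in WT and 2.64%, 3.3% and 4.75% in the carriers. These shares are means of 3 libraries and their differences were not tested.

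**Figure D3:**
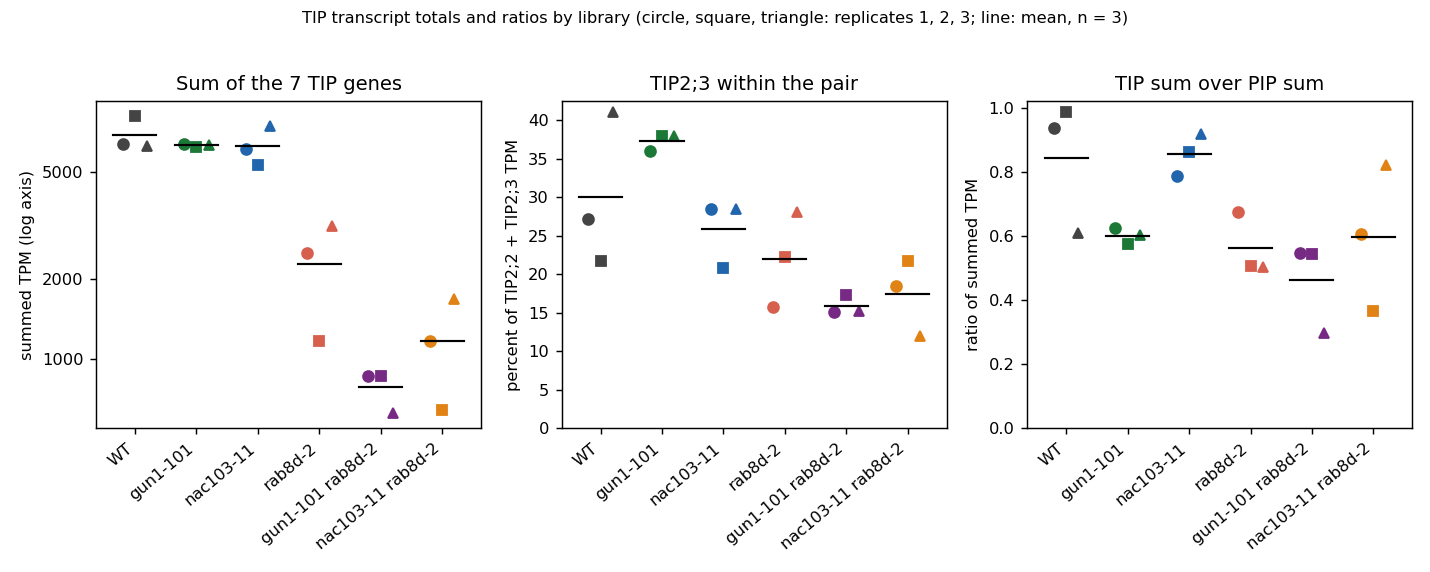
Summed TPM of the 7 TIP genes (left, log axis), TIP2;3 as a percent of itself plus TIP2;2 (middle) and the ratio of summed TIP to summed PIP TPM (right) in each library by genotype, with means (n = 3) as lines. Sums averaged 6920 TPM in WT and 785 TPM in gun1-101 rab8d-2, while the shares and the ratios of WT and rab8d-2 libraries overlapped.

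Plasma membrane intrinsic proteins (PIPs), the aquaporins of the cell surface, were read from a list of 13 genes. In rab8d-2 against WT 7 fell and 0 rose (median log2 fold change -1.28). PIP1C fell by 1.54 ± 0.29 on the log2 scale (adjusted p = 0.00643), PIP2B fell by 1.54 ± 0.31 (adjusted p = 0.00952) and PIP1;5 fell by 2.03 ± 0.44 (adjusted p = 0.0119). In gun1-101 rab8d-2 against gun1-101 10 fell and 1 rose (median -2.6), with PIP2B at -3.37 ± 0.33 (adjusted p = 2.27e-05), PIP1C at -2.40 ± 0.30 (adjusted p = 0.000108) and PIP1A at -3.39 ± 0.44 (adjusted p = 0.000128). In nac103-11 rab8d-2 against nac103-11 9 fell and 2 rose (median -1.39), with PIP2B at -2.78 ± 0.33 (adjusted p = 9.92e-05), PIP1A at -2.79 ± 0.42 (adjusted p = 0.000468) and PIP2A at -2.88 ± 0.49 (adjusted p = 0.000953). The count of 7 was 3 without WT replicate 2 and 2 without rab8d-2 replicate 2. All-gene calls in that contrast, 2585 as reported, were 447 to 4703 with 1 library left out. Over all genes 7.5%, 15.7% and 14.3% were called lower in the 3 contrasts, and 4.8%, 12.7% and 14.7% higher.

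PIP2;5 differed in direction from most of the PIP list. It rose in gun1-101 rab8d-2 (1.98 ± 0.54, adjusted p = 0.0146) and in nac103-11 rab8d-2 (2.84 ± 0.57, adjusted p = 0.00245), each against its single mutant. In rab8d-2 against WT its value was 1.40 ± 0.54 (adjusted p = 0.097), which was not called. Its level was low throughout, at 1.04 ± 0.71 TPM in WT, 3.17 ± 1.82 in rab8d-2, 4.77 ± 0.855 in gun1-101 rab8d-2 and 4.62 ± 1.85 in nac103-11 rab8d-2 (SD, n = 3). PIP2;8 also rose in nac103-11 rab8d-2 against nac103-11 (0.98 ± 0.28, adjusted p = 0.0174).

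In gun1-101 or nac103-11 against WT, edgeR called 0 of 13 PIP genes, with 0 and 1 at an unadjusted p below 0.05 and 0 by DESeq2 and limma. Over all genes 1489 and 1363 of 21004 had an unadjusted edgeR p below 0.05. Against rab8d-2, 4 PIP genes fell in gun1-101 rab8d-2, among them PIP2B (-1.76, adjusted p = 0.0075) and PIP1A (-1.83, adjusted p = 0.0234). In nac103-11 rab8d-2 2 fell, PIP2B (-1.36, adjusted p = 0.0363) and PIP2A (-1.98, adjusted p = 0.0416). In these 2 contrasts 1.68% and 1.26% of all genes were called lower. Interaction terms gave 0 called PIP genes by edgeR for gun1-101 (9 at an unadjusted p below 0.05, 3 by DESeq2, 1 by limma) and 0 for nac103-11 (3 at an unadjusted p below 0.05, 0 by DESeq2 and limma). Over all genes the numbers at an unadjusted edgeR p below 0.05 were 2108 and 3340 of 21004. The ratio of summed TIP to summed PIP TPM was 0.843 ± 0.205 in WT, 0.6 ± 0.0247 in gun1-101, 0.855 ± 0.0642 in nac103-11, 0.561 ± 0.0973 in rab8d-2, 0.463 ± 0.143 in gun1-101 rab8d-2 and 0.598 ± 0.228 in nac103-11 rab8d-2 (SD, n = 3). WT replicate 3 was at 0.608, within the gun1-101 range of 0.574 to 0.623.

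**Figure D4:**
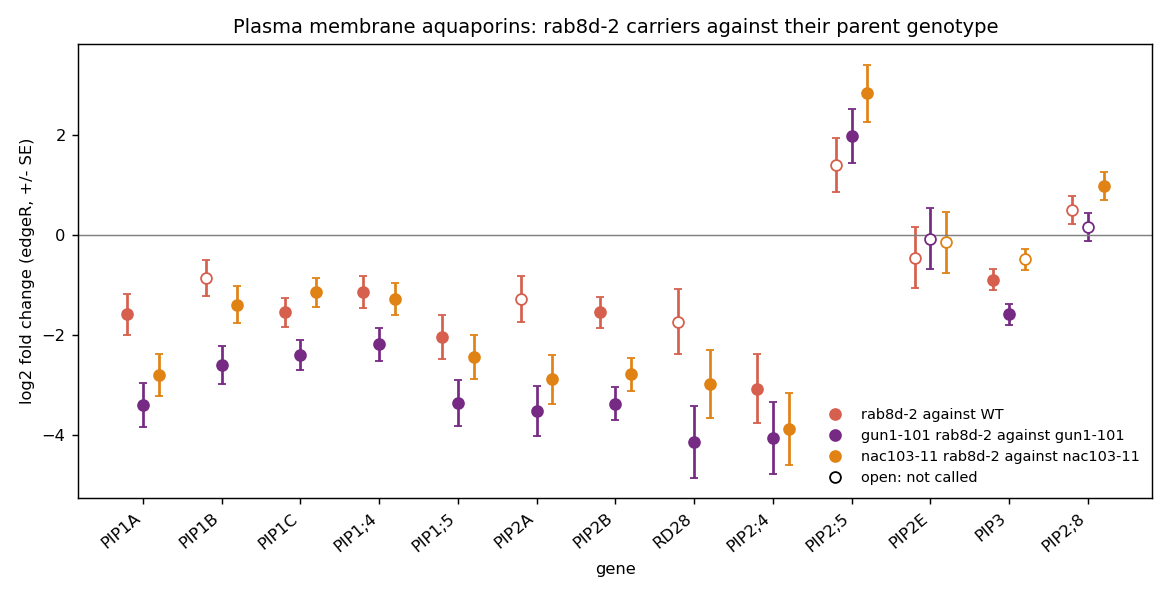
Log2 fold changes (points, open where not called) with standard errors (bars) of the 13 PIP genes in the same 3 comparisons of rab8d-2 carriers with WT or the matching single mutant. Most points lie below 0, and PIP2;5 lies above 0 in all 3, from 1.40 to 2.84.

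The other aquaporin classes gave fewer calls than the PIPs. Of 10 tested NIP and SIP genes 2 fell in rab8d-2 against WT (median -0.54), among them NIP4;2 (-2.33 ± 0.52, adjusted p = 0.0138). In gun1-101 rab8d-2 against gun1-101 3 fell (median -0.34), and in nac103-11 rab8d-2 against nac103-11 1 fell and 1 rose (median -0.45). The gene that rose was NIP2;1, a lactic acid channel (3.13 ± 0.93, adjusted p = 0.0214), whose libraries overlapped. Each of these counts moved by over 1.5 times when single libraries were left out, to between 0 and 5. All-gene calls were then 447 to 4703, 3849 to 7834 and 4020 to 6879 in the 3 contrasts. Over all genes 7.5%, 15.7% and 14.3% were called lower in the 3 contrasts, and 4.8%, 12.7% and 14.7% higher. At an unadjusted edgeR p below 0.05 there were 5, 4 and 4 of the 10. Over all genes these numbers were 6376, 8642 and 8592 of 21004.

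Proton pump genes were read from a list of V-ATPase subunits and the pyrophosphatase AVP1. Pumps of both kinds act at the tonoplast, the membrane of the TIPs, but where each listed subunit acts was not examined. Of 27 tested pump genes 1 fell in rab8d-2 against WT (VHA-E3, -1.03 ± 0.31, adjusted p = 0.0434, median of the list -0.52). In gun1-101 rab8d-2 against gun1-101 5 fell (VHA-E3 at -1.59, adjusted p = 0.00216, median -0.44), and in nac103-11 rab8d-2 against nac103-11 5 fell (VHA-a3 at -0.84, adjusted p = 0.00539, median -0.09). No pump gene rose in these contrasts. These counts were below or near the shares of all genes called lower, 7.5%, 15.7% and 14.3% in the same order. In rab8d-2 against WT all pump values lay below 0, from -1.03 to -0.09. At an unadjusted edgeR p below 0.05 there were 18, 15 and 6 of the 27 in the 3 contrasts. Over all genes these numbers were 6376, 8642 and 8592 of 21004. Summed pump transcripts spanned 3760 to 4480 TPM in WT, 3030 to 3540 in rab8d-2, 2790 to 3030 in gun1-101 rab8d-2 and 3410 to 4040 in nac103-11 rab8d-2. With single libraries left out the 3 counts of called pump genes ranged from 0 to 15, 1 to 18 and 2 to 14. The highest was each time without nac103-11 rab8d-2 replicate 3. Without it and WT replicate 3 the called counts were 21, 24 and 16. The shares above belong to the main fit. All-gene calls were 447 to 4703, 3849 to 7834 and 4020 to 6879 with single libraries left out. Under all alternatives run they reached up to 7974, 10974 and 8694.

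A list of other tonoplast transporters held carriers of ions, metals, sugars and malate and conjugate pumps. Of its 21 tested genes 3 fell in rab8d-2 against WT (median -0.39, beside 7.5% of all genes called lower), the zinc transporter MTP3 (-1.73 ± 0.28, adjusted p = 0.00316), the sodium and potassium exchanger NHX1 (-1.26, adjusted p = 0.0119) and the nitrate exchanger CLCa (-1.04, adjusted p = 0.0302). In gun1-101 rab8d-2 against gun1-101 7 fell and 2 rose (median -0.52), and in nac103-11 rab8d-2 against nac103-11 7 fell and 1 rose (median -0.3). Over all genes 15.7% and 14.3% were called lower in these 2 contrasts, and 12.7% and 14.7% higher. CLCa fell by 1.91 in the first (adjusted p = 0.000368) and MTP3 fell by 1.62 in the second (adjusted p = 0.0012). NRAMP3, which exports iron from the vacuole, rose in both (0.86 ± 0.17, adjusted p = 0.00253, and 0.96 ± 0.18, adjusted p = 0.00145). The count of 3 in rab8d-2 against WT was 1 without WT replicate 2 or rab8d-2 replicate 2, and 6 without WT replicate 3 or nac103-11 rab8d-2 replicate 3. All-gene calls there, 2585 as reported, were 447 to 4703 with 1 library left out.

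Many markers of root hair, endodermis and xylem fell in the 3 rab8d-2 contrasts, as the TIP genes did. In the 3 contrasts in the order above, 7, 7 and 7 of 8 root hair markers fell, 8, 5 and 8 of 10 endodermis markers, 6, 7 and 7 of 8 xylem markers, 2, 3 and 3 of 6 phloem markers, and 0, 1 and 2 of 2 cortex markers. Of 9 markers of dividing and stem cells 2, 4 and 2 rose and none fell. Of the 6 for dividing cells CYCB1;1 alone rose, as in rab8d-2 against WT (1.1, adjusted p = 0.0136), and the other calls were of the stem cell regulators PLT1, PLT2 and WOX5. Root cap markers fell in 0, 1 and 1 of 4, shoot markers in 0, 1 and 2 of 6 and seed markers in 0, 1 and 0 of 2 cases. Over all genes 7.5%, 15.7% and 14.3% were called lower in these contrasts, and 4.8%, 12.7% and 14.7% higher. Nothing is read from the smaller counts, such as those of root cap and shoot markers. Summed endodermis markers spanned 746 to 1060 TPM in WT, 171 to 418 in rab8d-2, 224 to 374 in gun1-101 rab8d-2 and 191 to 428 in nac103-11 rab8d-2. Root hair markers spanned 178 to 659 TPM in WT, 45.4 to 107 in rab8d-2, 31.1 to 45.4 in gun1-101 rab8d-2 and 31.4 to 68.5 in nac103-11 rab8d-2. Xylem markers spanned 126 to 257, 33.6 to 73.4, 21.5 to 50.4 and 22 to 64.5 TPM in those genotypes, and markers of dividing and stem cells 104 to 131, 122 to 228, 169 to 191 and 117 to 220 TPM. No marker of any of these lists was at 0 in all libraries of a genotype.

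Within genotypes the same libraries stood at the ends. rab8d-2 replicate 2, lowest of its genotype for all 6 TIP genes, was lowest for root hair, endodermis and xylem markers and highest for markers of dividing and stem cells, at 228 TPM. nac103-11 rab8d-2 replicate 3, highest for all 6 TIP genes, was highest for those 3 marker sets and lowest for dividing and stem cells, at 117 TPM. The part of these markers in the TIP result was not tested.

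Genes whose levels ran most like those of the TIPs over the 18 libraries included several PIP genes. For GAMMA-TIP, the TIP gene with the highest level, the 5 highest Pearson correlations of log2 CPM outside the TIP family were with PIP1;5 (r = 0.992), PIP1A (0.986), PIP2B (0.981), AT1G11740 (0.981) and AT3G49880 (0.978). Within the 9 rab8d-2 carriers these were 0.98, 0.95, 0.923, 0.985 and 0.965, and within the 9 other libraries 0.751, 0.538, 0.624, 0.27 and 0.579. For TIP2;3, the gene with the widest range, they were PIP2B (0.99), AT3G29635 (0.983), GALS2 (0.981), XTH21 (0.977) and PIP1A (0.976). The pooled values reflect the gap between carriers and other libraries as well as the spread within them. For TIP2;3 the values of these 5 genes, in the order above, were 0.939, 0.898, 0.95, 0.899 and 0.887 within the carriers and 0.926, 0.793, 0.675, 0.688 and 0.557 within the other libraries.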

How the data were processed

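Expected counts and TPM per gene and library were deposited by the authors in 1 table for 18 libraries, made with RSEM 1.3.1 on TAIR10 per the submitters' processing notes. Strandedness is not given in the sources used here. TPM values of the deposited table sum to 67.1 to 79.5% of 1000000 per library. The 12 columns of genotype means were not used.

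Expected counts (19.6% not whole at a tolerance of 1e-06) were rounded, filtered with filterByExpr (4173 of 25177 genes removed), scaled by TMM (factors 0.706 to 1.17) and fitted over all 18 libraries with edgeR 4.0.16's quasi-likelihood test in R 4.3.3, with 6 genotype means, 9 contrasts and Benjamini-Hochberg adjustment over 21004 genes at 0.05. The TIP genes and gene lists were chosen with earlier results of these data known. Named genes were the TIP genes, the mutated genes, up to 3 called genes per list and contrast with the smallest adjusted p, and the 5 genes most like 2 TIP genes. PIP2;5 and PIP2;8 were named for their direction and the second PIP genes against rab8d-2 by adjusted p, after values were seen. Alternatives used DESeq2 1.42.0 and limma 3.58.1 (log2(TPM + 1)), other scaling, no filter, the replicate block and left-out libraries. The test was checked on simulated data. Sequences and coding identity came from RefSeq TAIR10.1, the latter in place of the protein identity first planned. CPM used TMM-scaled totals, and 3 counts over 3 libraries correspond to 0.0387 to 0.0486 CPM, a limit for counting error only.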

Additional observations from a re-analysis of the deposited data

How the results depend on the processing

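In rab8d-2 against WT the count of called TIP genes, 5, was 0 with only the libraries compared, and 1 to 5 when 1 library was left out. The PIP count there, 7, was 0 with only the libraries compared, and 2 to 10 with 1 library left out. All-gene calls there, 2585 as reported, were 76 to 7974 over the alternatives run, and 447 to 4703 with 1 library left out. In gun1-101 rab8d-2 against rab8d-2 the TIP count of 3 was 1 with gun1-101 rab8d-2 replicates 1 and 2 averaged, and 1 to 4 with 1 library left out. All-gene calls in that contrast, 878 as reported, were 209 to 3285 over the alternatives run. In nac103-11 rab8d-2 against rab8d-2 the TIP count of 1 was 0 with DESeq2 size factors, with no filter, with only the libraries compared, under the replicate block and with the averaged libraries, 2 with nac103-11 rab8d-2 replicate 3 and WT replicate 3 left out, and 0 to 1 with 1 library left out. The interaction count for gun1-101, 0, was 1 with the DESeq2 Wald test, 1 with limma on TPM, 2 without those 2 libraries, and 0 to 1 with 1 library left out (1 without rab8d-2 replicate 2 or nac103-11 rab8d-2 replicate 3). All-gene calls moved in both. They were 2 to 2096 in nac103-11 rab8d-2 against rab8d-2 (534 as reported) and 11 to 748 for the gun1-101 interaction (41 as reported). The cause of these shifts was not tested, including the part of fewer residual degrees of freedom where fewer libraries were fitted. The TIP counts in gun1-101 rab8d-2 against gun1-101 (5 to 6) and nac103-11 rab8d-2 against nac103-11 (3 to 6) moved by no more than 1.5 times under the alternatives run.

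All 6 genes were lower in the 3 rab8d-2 contrasts under each of the 26 or 27 alternatives run. With TIP2;2 and TIP2;3 counted as 1 gene the log2 fold change was -4.68 for rab8d-2 within gun1-101 and -3.79 within nac103-11. By the median, libraries with the same replicate number were hardly more alike than others. Whether some of them shared a culture or batch cannot be told from this. Deviations of libraries with the same number correlated at -0.56 to 0.46 (median 0.02, 45 pairs) and those with different numbers at -0.53 to 0.62 (median -0.01, 90 pairs). Besides the count of 0 stated above, the replicate block ended the calls of DELTA-TIP in rab8d-2 against WT (count 4), of TIP4;1 for rab8d-2 within gun1-101 (count 5) and of TIP2;2 in gun1-101 rab8d-2 against rab8d-2 (count 2). Counting error was small for all 6 genes at this depth, whereas TIP1;3 was too shallow to compare.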
